A study of Zea mays with 56 samples.

Results

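LINE and SINE elements were taken from the transposable element (TE) count table of a study of maize plants with and without B chromosomes. A row was a member when its identifier began with RIL, RIT or RST, which are the usual superfamily codes for L1 LINEs, RTE LINEs and SINEs. This gave 560 of the 60247 TEs in the table, with 45 RIL, 33 RIT and 482 RST elements. The identifiers of 20 members contain zmB, the tag of TEs annotated on the B chromosome (5 RIL, 2 RIT and 13 RST), and these are counted apart. The files used here give no position and no sequence for a TE, so elements are named by identifier only.

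All plants were of the maize inbred W22, and leaf tissue was taken at 45 days from greenhouse plants. The control group had 4 plants without a B chromosome. The carriers were 24 plants: 4 each with 1, 2, 3 and 4 copies (1B to 4B), 2 with 5 copies (5B), 3 with 6 (6B) and 3 with 7 (7B), with copies counted in seedlings by fluorescence in situ hybridization and plants of a group called biological replicates. The plant codes of the controls belong to another series than those of all carriers, so a difference between plant series and B presence cannot be told apart.

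LINEs and SINEs are retrotransposons without long terminal repeats, which copy themselves through an RNA intermediate. LINEs of the L1 and RTE type encode a reverse transcriptase and an endonuclease that nick the target DNA and copy the element's RNA into it. SINEs are short, code for no protein, mostly derive from small RNAs made by RNA polymerase III, and depend on the enzymes of LINEs. In maize both classes are a small part of a TE complement dominated by LTR retrotransposons. B chromosomes are extra chromosomes that the plant does not need, and they carry their own TE copies.

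Members held little of the TE signal. Each library gave them 954 to 2517 counts, which is 0.0639% to 0.194% of TE totals of 738507 to 1623250. No count at all was found for 244 members, and 316 had at least 1 count. Only 55 passed the low-count filter for the B presence test: 14 RIL (2 with zmB), 10 RIT (none with zmB) and 31 RST (2 with zmB). The other 261 members with counts held 7151 of the 48765 member counts, with at most 142 each over the 28 libraries. Libraries differed in composition, and 3 of them stood apart: a single LTR element held 17.7% of all TE reads counted for Control replicate 2, 25.1% for Control replicate 4 and 31.4% for 1B replicate 3. Calls lost without these 3 libraries are named beside their results. The labels do not say which assay the TE table comes from, and it was taken as RNA-seq.

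Element length was at odds with the SINE code in most RST rows. The length that relates the deposited counts to the deposited RPKM (reads scaled to element length and library size) ran from 8145 to 17794 bp in RIL elements, with a median of 8793 bp (n = 39). RIT elements ran from 7855 to 17424 bp, with a median of 8838 bp (n = 32). RST elements ran from 59 to 19008 bp, with a median of 6067 bp (n = 245), and 201 of the 245 were over 1000 bp while 39 were under 500 bp. Most RST rows were therefore longer than a SINE, and they are called RST elements below.

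Per length, most members were low. The median of the mean RPKM over 28 plants was 0.183 for RIL, 0.0966 for RIT and 0.141 for RST elements with counts. The highest value was that of RST00608Zm00004b00001, a 127 bp element at 1329 RPKM. The next was RST00339Zm00004b00001, a 201 bp element at 98.5 RPKM. The highest RIL element was RIL210188zmB00001 at 12.1 RPKM, and the highest RIT element reached 2.93 RPKM. The order of the top RPKM values thus began with short RST elements, and RST00608Zm00004b00001 also had the most counts of any member.

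**Figure D1:**
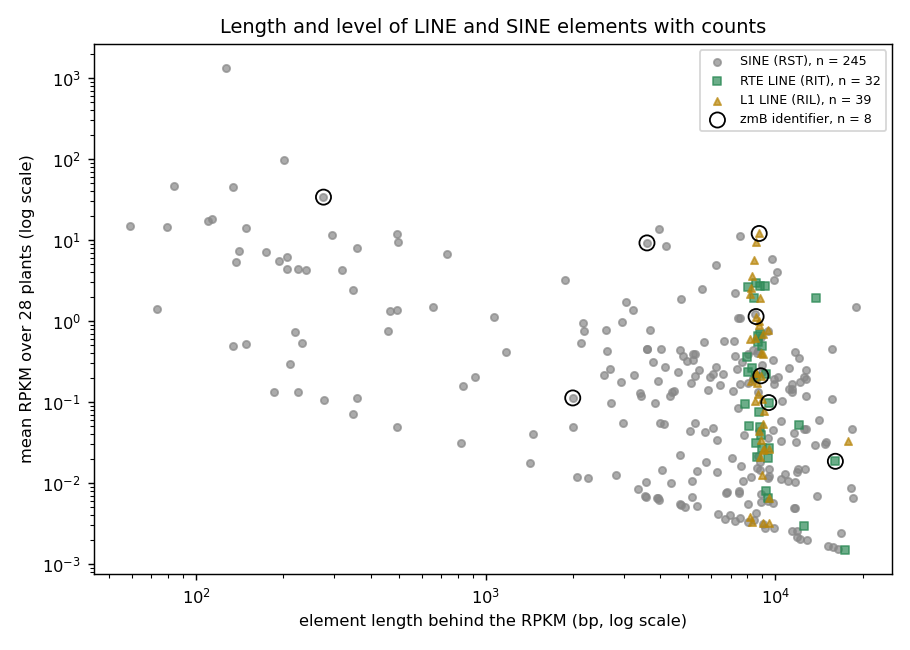
Mean RPKM over the 28 plants (vertical, log scale) against element length in bp (horizontal, log scale) for the 316 members with counts, by superfamily, with zmB identifiers ringed. RIL and RIT elements gather near the median lengths of 8793 and 8838 bp, and the 127 bp RST00608 element stands alone at 1329 RPKM.

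For B presence, the mean of the 7 carrier groups was set against the 4 controls. L1 elements gave most of the higher calls and RST elements all of the lower ones. Of the 55 members tested, 11 were higher in carriers and 2 lower by the edgeR quasi-likelihood test at a Benjamini-Hochberg adjusted p of 0.05. Among all 5359 TEs tested, 23.7% were higher and 21.7% lower. The members' shares were 20% and 3.64%, so the higher share was near that of all TEs and the lower share was below it. By superfamily, 6 of 14 RIL elements (42.9%), 1 of 10 RIT elements (10%) and 4 of 31 RST elements (12.9%) were higher, and 2 RST elements (6.45%) were lower. Of the 11 higher members, 3 had under 10 counts in every control library and so passed the low-count filter through carriers: RST00042zmB00001, RST00343Zm00004b00001 and RST00773Zm00004b00001. Among the 45 members with 10 or more counts in a control library, 8 were higher and 2 lower. No share of all TEs under this condition is given here, so the 8 and 2 are not compared with one. These 8 include RIL00003Zm00004b00003, which had 10 counts in Control replicate 3 and 3 to 8 in the other controls. The filter needs more than 1 library, so this element also passed through carriers. Calls of elements that passed in this way carry no weight as tests of B presence. Whether the shares of called elements differ between superfamilies was not tested. The median log2 change of the elements tested was 0.53 in RIL without zmB, 0.19 in RIT and -0.24 in RST without zmB, beside 0.06 over all TEs. Levels are given as CPM (counts scaled to the TMM-adjusted library size), and in bulk leaf RNA fewer cells of a type and less RNA per cell cannot be told apart.

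**Figure D2:**
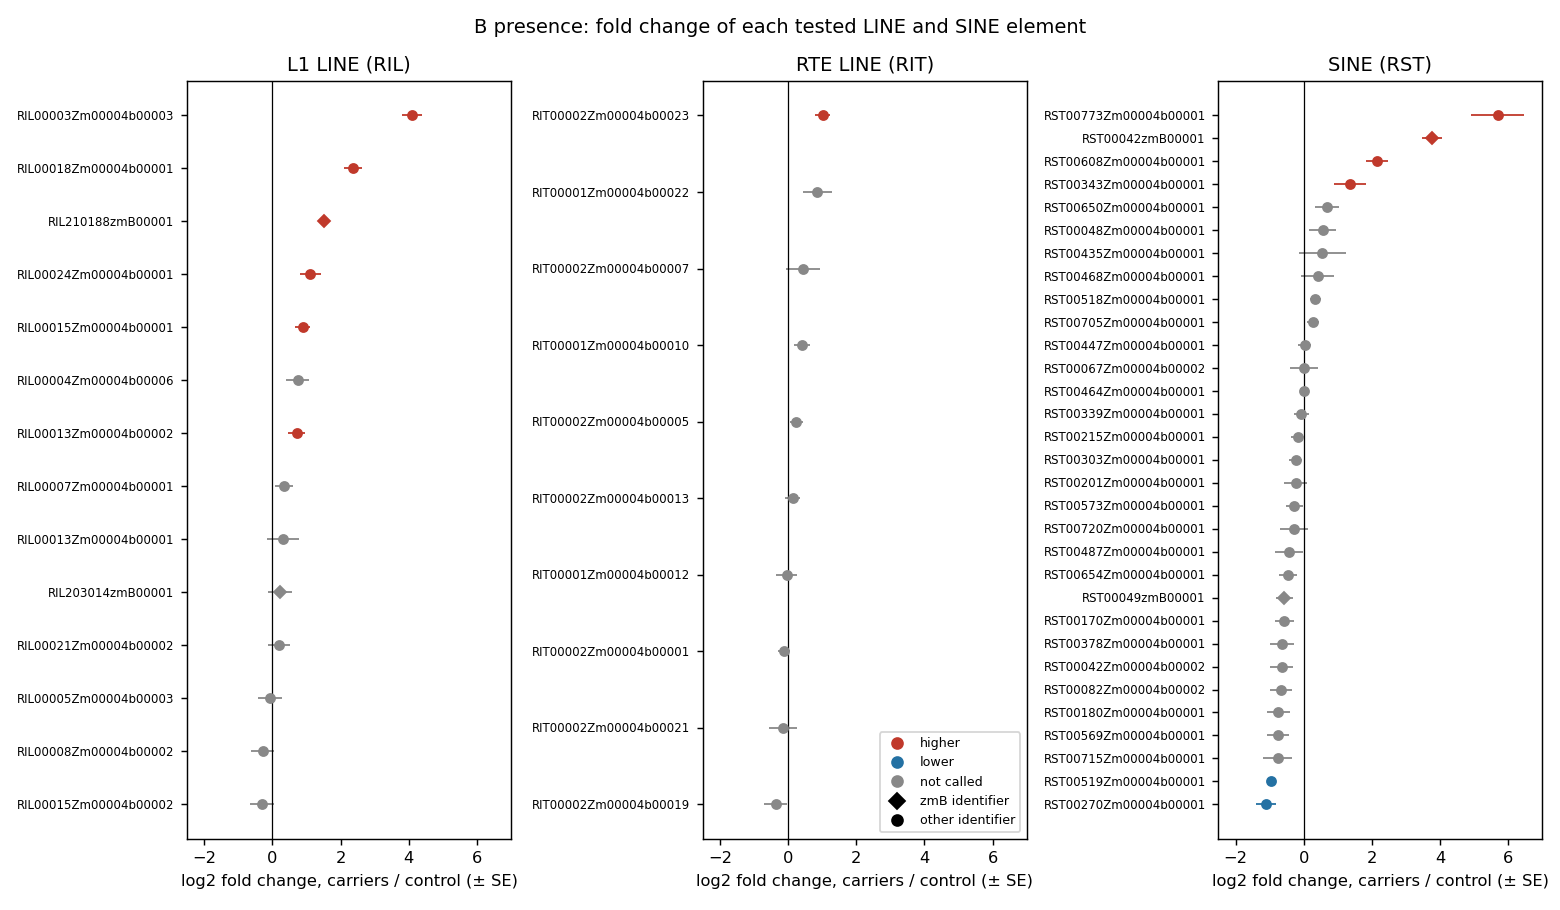
log2 fold change of carriers over control with its standard error (horizontal) for each of the 55 members tested (vertical), by superfamily; red marks elements higher in carriers, blue lower, grey not called, and diamonds zmB identifiers. Higher calls number 6 of 14 in RIL, 1 of 10 in RIT and 4 of 31 in RST.

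RIL00003Zm00004b00003, an 8548 bp L1 element, had the largest fold change among the L1 elements tested. The controls stood at 5.44, 3.27, 7.49 and 3.84 CPM in replicates 1 to 4. The 24 carriers ranged from 61.4 CPM (2B replicate 2) over a median of 89.0 to 169.9 CPM (2B replicate 4). Every carrier lay above every control, and the lowest group mean was 75.8 CPM in 6B. The mean rose from 5.01 ± 1.89 CPM (SD, n = 4) to 93.9 ± 26.0 CPM (SD, n = 24), a log2 change of 4.09 ± 0.30 (SE; edgeR quasi-likelihood adjusted p = 1.23e-12). The element passed the low-count filter through carriers, so this call carries no weight as a test. The other copy of its family, RIL00003Zm00004b00002, had 4 counts in all 28 libraries. Reads of near-identical copies could be split between them, since the treatment of reads with several matches is not given in the sources used here.

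RIL00018Zm00004b00001, an 8464 bp L1 element, followed. The controls had 8.85, 7.63, 11.2 and 15.4 CPM, and the carriers ran from 26.4 over a median of 51.4 to 89.5 CPM. The groups did not overlap, and the highest group mean was that of 4B at 76.2 CPM. Its log2 change was 2.36 ± 0.26 (SE; edgeR adjusted p = 5.02e-09).

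Smaller rises were called for 3 further L1 elements without zmB, each with overlap between the groups. RIL00015Zm00004b00001 went from 17.0 CPM in controls to 32.2 in carriers (log2 change 0.89 ± 0.22 SE; edgeR adjusted p = 0.00143), with 23 of 24 carriers above the highest control. RIL00024Zm00004b00001 went from 8.45 to 19.4 CPM (log2 change 1.11 ± 0.30 SE; edgeR adjusted p = 0.00308), with 22 of 24 carriers above the highest control. RIL00013Zm00004b00002 went from 13.3 to 22.9 CPM (log2 change 0.71 ± 0.26 SE; edgeR adjusted p = 0.0231). The last call was lost without Control replicate 1, 2 or 4, and without the 3 libraries named above, where its log2 change was 0.49 (adjusted p = 0.266). The other tested copies of these families were not called: the second RIL00015 copy had a log2 change of -0.29 (edgeR adjusted p = 0.529) and the second RIL00013 copy one of 0.30 (edgeR adjusted p = 0.631).

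Of the RTE LINEs, 1 tested element was called. The table holds 17 copies of the RIT00001 family and 14 of the RIT00002 family, of which 3 and 7 were tested. The called element, RIT00002Zm00004b00023, stood at 10.9, 13.1, 15.0 and 12.8 CPM in the controls and at 12.9 to 39.8 CPM in carriers, with a median of 26.5. All carriers but 1B replicate 1 lay above the highest control, and the log2 change was 1.01 ± 0.21 (SE; edgeR adjusted p = 0.000194). The 6 other tested RIT00002 copies had log2 changes of -0.37 to 0.43 and the 3 tested RIT00001 copies of -0.05 to 0.86. The RTE elements with the most counts, RIT00002Zm00004b00001 and RIT00001Zm00004b00010, had adjusted p-values of 0.596 and 0.151 by the edgeR test.

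Among RST elements without zmB, the element with the most counts was higher in carriers. RST00608Zm00004b00001, 127 bp long and with 5551 counts in all, stood at 53.8, 21.8, 49.5 and 46.1 CPM in the controls. The carriers ran from 75.5 (2B replicate 4) over a median of 174.4 to 358.6 CPM (1B replicate 1). The groups did not overlap, though carriers with the same copy number differed widely: 1B plants alone spanned 126.5 to 358.6 CPM. The mean rose from 42.8 ± 14.3 (SD, n = 4) to 194 ± 71.2 CPM (SD, n = 24), a log2 change of 2.14 ± 0.32 (SE; edgeR adjusted p = 1.73e-06).

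The RST element with the next most counts fell. RST00519Zm00004b00001, 7523 bp long, had 113.6, 191.9, 110.9 and 169.1 CPM in the controls and 46.9 to 112.2 CPM in carriers, with a median of 74.95. All carriers but 1B replicate 1 lay below the lowest control. The log2 change was -0.95 ± 0.13 (SE; edgeR adjusted p = 4.73e-07). The higher control levels, 191.9 and 169.1 CPM, were those of Control replicates 2 and 4, which are among the 3 libraries named above. Over 34 alternatives the log2 change ran from -1.10 to -0.58, and the call was lost in none. RST00270Zm00004b00001, 492 bp long, fell from 10.2 CPM to 5.24 CPM (log2 change -1.10 ± 0.30 SE; edgeR adjusted p = 0.00315). With scaling by the ERCC spike-ins, which moved the median log2 change of all TEs from 0.06 to 0.38, its call was lost (adjusted p = 0.0984).

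RST00464Zm00004b00001, the third RST element by counts, stood at 56.2 CPM in controls and 57.4 in carriers (log2 change 0.00 ± 0.12 SE; edgeR adjusted p = 0.996). RST00343Zm00004b00001 was higher in carriers, at 5.89 against 2.27 CPM (log2 change 1.35 ± 0.47 SE; edgeR adjusted p = 0.0186). That call was lost without Control replicate 1, 3 or 4 (adjusted p = 0.106, 0.0591 and 0.0725) and with no low-count filter (adjusted p = 0.051). The element also passed that filter through carriers, so the call carries no weight as a test.

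**Figure D3:**
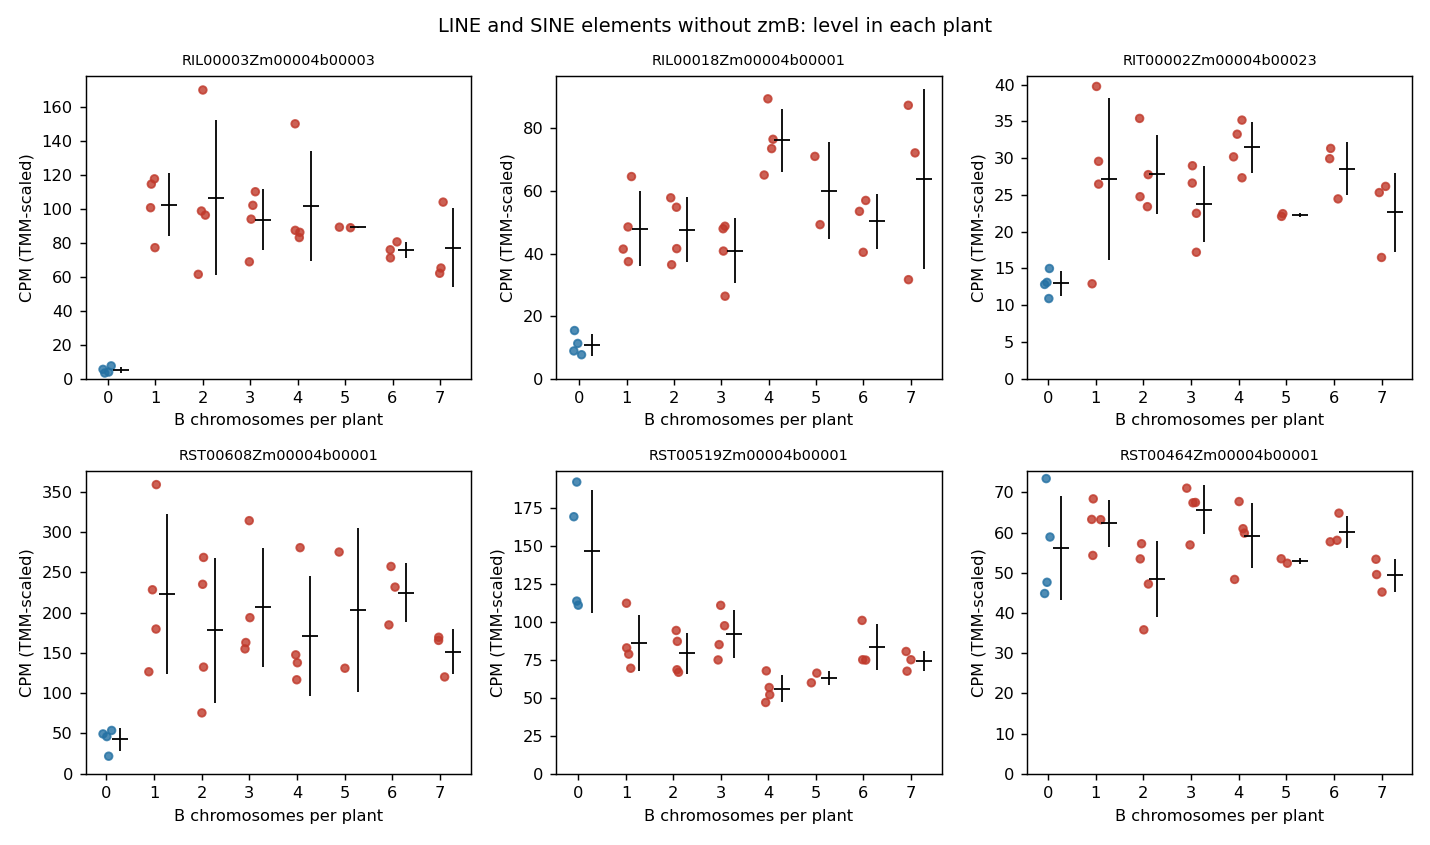
CPM (TMM-scaled, vertical) in each plant against its number of B chromosomes (horizontal) for 6 elements without zmB; blue points are controls, red points carriers, and black marks the group mean with its SD. RIL00003, RIL00018 and RST00608 are higher in every carrier than in every control, RST00519 is lower in 23 of 24 carriers, and RST00464 overlaps throughout.

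Among the 55 members tested, 5 were higher in every carrier than in every control: RIL00003Zm00004b00003, RIL00018Zm00004b00001, RIL210188zmB00001, RST00042zmB00001 and RST00608Zm00004b00001. None was lower in every carrier than in every control. Over all TEs tested these shares were 8.25% and 8.34%, so the 5 of 55 were near the share of all TEs. RIL00003Zm00004b00003 and RST00042zmB00001 passed the low-count filter through carriers.

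With a single B chromosome, 12 members were higher and 3 lower in 1B than in the same 4 controls, against 19.3% and 15.2% of all TEs. The members' shares were 21.8% and 5.45% of 55. Among the 12 higher, RIL00003Zm00004b00003, RIT00001Zm00004b00022, RST00042zmB00001, RST00343Zm00004b00001 and RST00773Zm00004b00001 passed the low-count filter through carriers. Their 1B calls carry no weight as tests. RIL00003Zm00004b00003 was again far above the controls: the 1B plants stood at 100.6, 117.6, 77.1 and 114.5 CPM (log2 change 4.26 ± 0.33 SE; edgeR adjusted p = 2.37e-11). RST00608Zm00004b00001 changed by 2.34 ± 0.37 on the log2 scale in 1B (SE; edgeR adjusted p = 8.98e-06). RIT00001Zm00004b00022, an RTE element not called over all carriers (edgeR adjusted p = 0.0905), was higher in 1B, at 5.16, 10.3, 11.5 and 12.7 CPM against 2.72, 2.18, 5.25 and 2.56 CPM in the controls (edgeR adjusted p = 0.0103). Without the 3 libraries named above, the 1B calls of RIT00001Zm00004b00022 (adjusted p = 0.161), RIL00013Zm00004b00002 (0.285), RIL00015Zm00004b00001 (0.114), RIL210188zmB00001 (0.0667), RST00519Zm00004b00001 (0.116) and RST00270Zm00004b00001 (0.0712) were lost, and 8 members remained higher. The 3 lower members were RST00519Zm00004b00001 with a log2 change of -0.77 (edgeR adjusted p = 0.00127), RST00180Zm00004b00001 with -1.61 (edgeR adjusted p = 0.0194) and RST00270Zm00004b00001 with -1.09 (edgeR adjusted p = 0.0438). The RST00270 call was lost in 10 of its 14 alternatives, with adjusted p-values up to 0.325. None of the 3 was called with ERCC scaling, which moved the median log2 change of all TEs from 0.12 to 0.50, and 1 member was lower without Control replicate 3, without 1B replicate 4 or without the 3 libraries. A fit of the Control and 1B libraries alone, in which 32 members were tested, called 6 higher and 1 lower. The shares of all TEs called in that smaller fit are not given here. The 19.3% and 15.2% above belong to the fit of all carriers and controls.

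The dosage test asked, among the 24 carriers only, whether an element changed with each further B copy. Of 53 members tested, 3 rose and 0 fell by the edgeR quasi-likelihood test, while 8.97% of 5074 TEs rose and 3.59% fell. DESeq2 also called 3 and 0. At an unadjusted p of 0.05, 3 of the 53 members fell with either tool, RIL00003Zm00004b00003 among them. The share of all TEs falling at that unadjusted cut-off is not given here, so this count is not read as a result. Of the 3 that rose, 2 carry zmB, among 4 zmB members tested; over all TEs with zmB, 54.2% rose, and over those without it 6.85%. The rising element without zmB, RST00773Zm00004b00001, entered this test through plants with many copies, as given below. RIL00003Zm00004b00003 and RST00608Zm00004b00001 had slopes of -0.08 and -0.03 per copy on the log2 scale (edgeR adjusted p = 0.131 and 0.742).

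RIL210188zmB00001, an 8793 bp L1 element with the B tag, rose with copy number. The controls had 31.3, 45.8, 39.0 and 47.4 CPM, so reads were assigned to it without any B chromosome. From 1B to 7B the group means were 58.1, 68.8, 91.7, 124.2, 153.7, 189.5 and 204.8 CPM. No carrier lay below the controls, and the mean rose in each step of copy number. The slope among carriers was 0.33 ± 0.02 per copy on the log2 scale (SE; edgeR adjusted p = 7.89e-13). On the linear scale it was 26.4 ± 1.73 CPM per copy (SE, n = 24), with an intercept of 21.3 CPM beside a control mean of 40.9. Against control, the log2 change over all carriers was 1.52 ± 0.14 (SE; edgeR adjusted p = 2.53e-10). In 1B alone it was 0.52 ± 0.18 (SE; edgeR adjusted p = 0.0212), a call lost in 6 of 15 alternatives, among them those without the 3 libraries named above (log2 change 0.58), without Control replicate 1 (0.34), without Control replicate 3 (0.45) and without 1B replicate 3 (0.41).

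RST00042zmB00001, a 3602 bp RST element with the B tag, rose as well. The controls had 1.36, 3.27, 4.50 and 1.28 CPM. Group means climbed from 15.0 CPM in 1B over 23.6, 35.7, 38.8, 49.1 and 55.6 CPM in 2B to 6B to 73.5 ± 19.5 CPM in 7B (SD, n = 3). Every carrier was above every control. The slope was 0.33 ± 0.03 per copy on the log2 scale (SE; edgeR adjusted p = 2.04e-09), or 9.002 ± 0.842 CPM per copy, and the change against control was 3.76 ± 0.30 (SE; edgeR adjusted p = 7.2e-12). The element passed the low-count filter through carriers, so the change against control carries no weight as a test. The family's other copy, RST00042Zm00004b00002 without zmB, had 11.5 CPM in controls and 7.80 in carriers (edgeR adjusted p = 0.126) and a slope of -0.04 (edgeR adjusted p = 0.796).

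RST00773Zm00004b00001, 733 bp long, has no B tag and rose with copy number too. It had 0 counts in all 4 controls. From 1B to 7B the group means were 2.79, 3.04, 2.48, 6.33, 9.43, 8.71 and 12.6 CPM, and 23 of 24 carriers had counts, the exception being 3B replicate 1. The slope was 0.40 ± 0.06 per copy on the log2 scale (SE; edgeR adjusted p = 4.58e-06). Against a floor of 3 counts over the control group, or 0.666 CPM, the mean of 5.89 CPM in carriers was at least 8.84-fold higher. The element passed the low-count filter through its carrier libraries alone, so its place among the higher members carries no weight as a test. In 1B to 3B plants it had at most 5 counts, so it entered the dosage test through plants with more copies. Its slope therefore carries no weight as a test either.

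**Figure D4:**
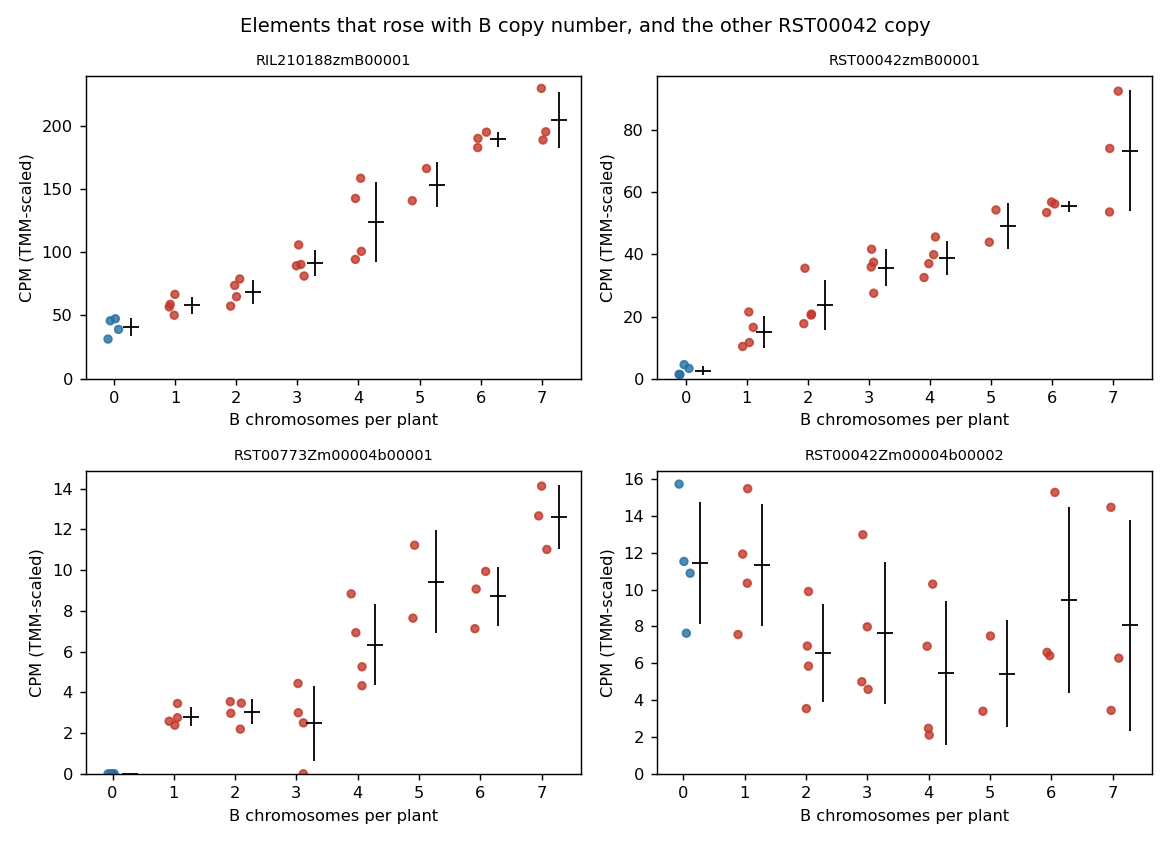
CPM (TMM-scaled, vertical) in each plant against its number of B chromosomes (horizontal) for the 3 elements that rose with copy number and for RST00042Zm00004b00002, the copy without zmB; blue points are controls, red points carriers, and black marks the group mean with its SD. RIL210188zmB00001 climbs from 58.1 CPM in 1B to 204.8 CPM in 7B, while RST00042Zm00004b00002 scatters without a called slope.

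The 2 other zmB members tested were called in none of the 3 tests. RIL203014zmB00001 stood at 7.87 CPM in controls and 10.2 in carriers (edgeR adjusted p = 0.629). RST00049zmB00001, 275 bp long, stood at 13.3 CPM in controls and 8.86 in carriers (edgeR adjusted p = 0.0789). Their dosage slopes were 0.01 and 0.06 per copy (edgeR adjusted p = 0.962 and 0.556). Of the other 16 zmB members, 12 had no counts and 4 had 66 counts or fewer, the 2 RIT elements among them with 41 counts in all.

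Summed over each superfamily, tested or not, the levels were a description with no test. RIL elements without zmB summed to 122.6 ± 24.3 CPM in controls (SD, n = 4) and 304 ± 64.5 CPM in carriers (SD, n = 24), and the ranges did not overlap, at 96.1 to 149.1 against 210.8 to 467.8 CPM. The 35 of these 40 elements that were not called went from 68.0 ± 17.2 to 81.1 ± 16.9 CPM, and the called elements, which were picked on these same levels, made up the rest. RIL00003Zm00004b00003 alone made up 4.18% of the RIL counts without zmB in controls and 30.5% in carriers. RIL elements with zmB went from 49.9 CPM in controls to 73.3 in 1B and 217.1 in 7B, and RIL210188zmB00001 held 90.0% of their counts.

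RIT elements without zmB summed to 151 ± 30.1 CPM in controls and 181 ± 26.1 in carriers, with overlapping ranges. RST elements without zmB summed to 848 ± 76.4 and 883 ± 114 CPM, a log2 ratio of 0.06 that turned to -0.22 without RST00608Zm00004b00001. RST elements with zmB went from 15.9 ± 6.42 to 48.2 ± 20.8 CPM, a log2 ratio of 1.60 that turned to -0.54 without RST00042zmB00001. Single elements thus set the direction of both RST sums.

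**Figure D5:**
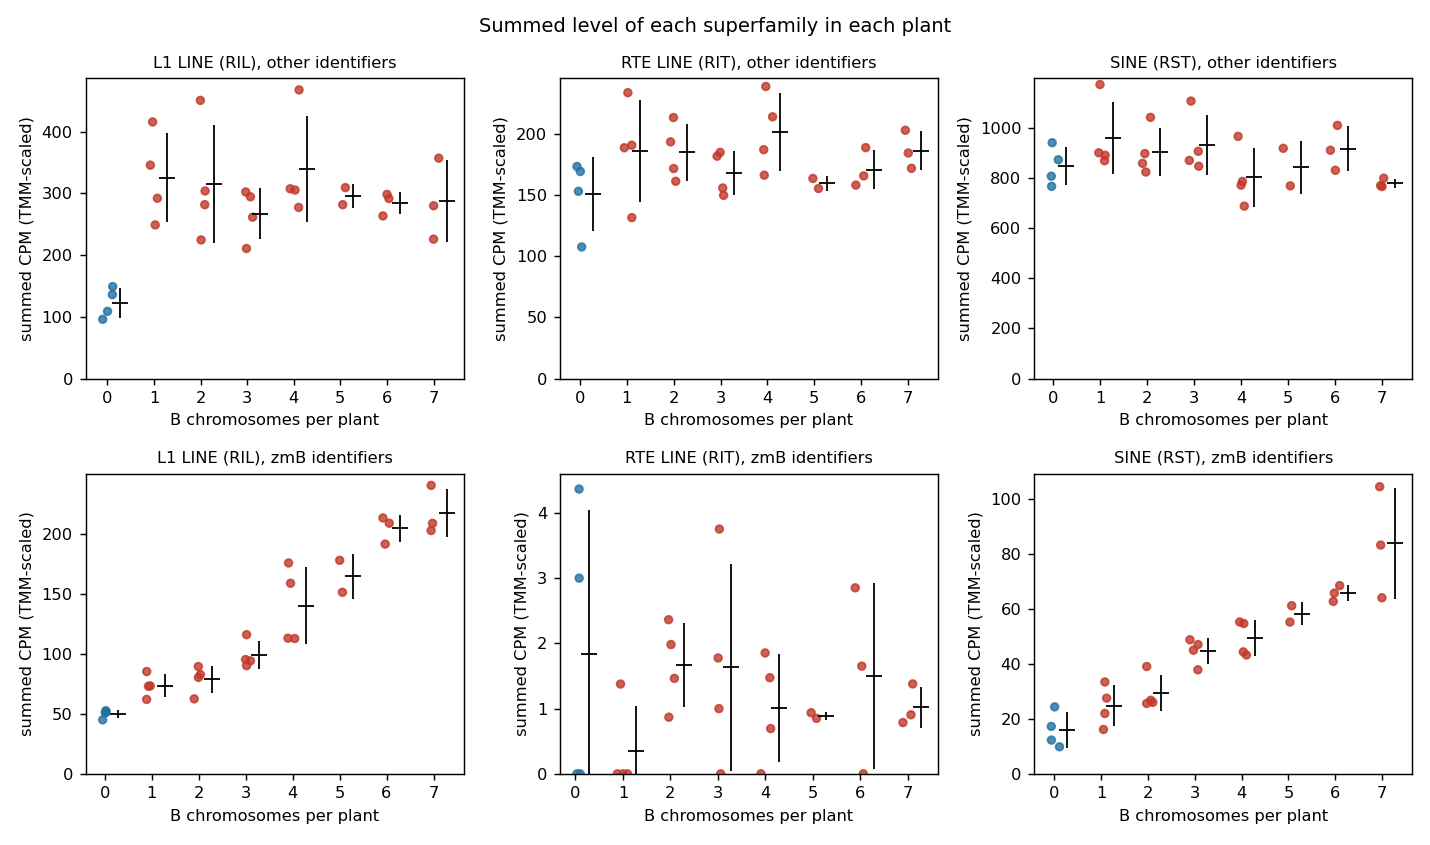
Summed CPM (TMM-scaled, vertical) of each superfamily in each plant against its number of B chromosomes (horizontal), with zmB identifiers in the lower row; blue points are controls, red points carriers, and black marks the group mean with its SD. The RIL sum without zmB separates controls from carriers with no overlap, and the RIL and RST sums with zmB are highest in 7B.

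The authors' deposited table holds their own comparison of each copy number with the same 4 controls. In the authors' deposited table, 6, 10, 8, 10, 9, 10 and 10 of the 560 members were higher past a false discovery rate of 0.05 in 1B to 7B, beside 0.526%, 1.30%, 1.22%, 1.60%, 1.16%, 1.71% and 2.18% of all TEs. These counts were 1.07%, 1.79%, 1.43%, 1.79%, 1.61%, 1.79% and 1.79% of the members. By value alone the members' shares lay above those of all TEs in 1B to 6B and below in 7B. Some were close, with 1.79% against 1.60% in 4B and 1.79% against 1.71% in 6B. Whether the shares differ was not tested. The share of all TEs that were lower was 0.607%, 0.619%, 0.798%, 0.622%, 0.193%, 0.669% and 0.498%. The only lower member in the authors' deposited table was RST00519Zm00004b00001 in 4B, at a log2 change of -1.02. Past that rate in all 7 comparisons of the authors' deposited table were RIL00003Zm00004b00003, RIL00018Zm00004b00001, RST00042zmB00001, RST00608Zm00004b00001 and RST00773Zm00004b00001. RIL210188zmB00001 passed in 6, with an FDR of 0.533 in 1B in the authors' deposited table.

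RST00103Zm00004b00001, a 9805 bp element chosen after its values were seen, passed in 6 of the 7 comparisons of the authors' deposited table but was too low for the test here. It had 0 counts in all 4 controls and counts in all 24 carriers, 109 in sum, at 0.764 to 7.56 CPM with a median of 3.70. It was the only member with this pattern, which 0.0614% of all TEs showed. Its 1B plants stood at 3.87, 7.56, 6.90 and 4.77 CPM.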

How the data were processed

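The authors deposited whole-number read counts per TE and per ERCC spike-in (92 synthetic RNAs), RPKM values per TE, and a table of edgeR comparisons with log2 fold changes, p-values, FDR and a likelihood-ratio score, per the file headers. The submitters' processing notes name cutadapt 1.16, TopHat2, Bowtie2, edgeR and Cuffdiff, without their roles. Genome build, TE annotation and the handling of reads with several matches are not given in the sources used here.

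The edgeR 4.0.16 quasi-likelihood test (R 4.3.3) was run on the counts with TMM factors, after filterByExpr by group (default minimum count 10). All 28 libraries entered 1 fit with 8 groups; B presence compared control with the average over 7 carrier groups, and dosage the slope per copy in 24 carriers. The Benjamini-Hochberg adjustment ran over all TEs tested, with a threshold of 0.05; the SE is the log2 change divided by the square root of F. The code was tested on simulated data. DESeq2 1.42.0 and the other alternatives are in the closing section. Lengths were solved from counts and RPKM and came out whole within 0.05 bp for 48316 of 48316 TEs with counts.

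Named elements are those past the threshold in a test, tested zmB elements, and the 3 with the highest mean CPM per superfamily. The members and lists were chosen with earlier results of these data known. Gene tables and small RNA libraries were not analysed here. Depth ranged from 738507 to 1623250 TE counts per library, and the floor of 3 counts covers counting error only.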

Additional observations from a re-analysis of the deposited data

Results flagged for a closer look

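In groups of 4 plants, a value was picked out where its gap to the nearest plant took up most of the group's range. This happened in 6 of 129 tests, and chance alone gives about 1 in 20. For 4B replicate 1, RIL00003Zm00004b00003 stood at 150.0 CPM while the other 4B plants stood at 83.0 to 87.3, and the summed RIL level without zmB was 468 CPM beside 277 to 308. RIL00013Zm00004b00002 was low in 3B replicate 4, at 15.0 CPM beside 20.4 to 21.0. RIT00002Zm00004b00013 was low in 4B replicate 3, at 16.2 CPM beside 29.4 to 30.2. The summed RST level without zmB was 1170 CPM in 1B replicate 1 beside 870 to 902, and with zmB it was 39.0 CPM in 2B replicate 1 beside 25.6 to 26.7.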

How the results depend on the processing

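For B presence, each alternative other than leaving out single plants, taken alone, kept 10 or more of the 11 higher calls. These alternatives were ERCC spike-in scaling, no low-count filter, TMM without the 10 most counted TEs, replicate block, DESeq2, and without the 3 libraries. Leaving out the 3 libraries was chosen for some results after seeing the data. The lost call differed: it was RIL00013Zm00004b00002 without the 3 libraries and RST00343Zm00004b00001 with no filter. Leaving out single plants gave 9 to 12 higher and 2 to 4 lower (4 without Control replicate 2, 4B replicate 4, 5B replicate 1 or 5B replicate 2). The 2 lower calls became 1 with ERCC scaling and 12 with no filter. With no filter, all 316 members with counts were tested for presence and 1B, rather than 55. The shares of all TEs called in the alternatives are not given here. In 1B, the 12 higher calls became 6 when only Control and 1B were fitted, where fewer members were tested. They ranged from 9 to 12 without single plants. The 3 lower calls there became 0 with ERCC scaling and 1 with no filter, without the 3 libraries or with only Control and 1B, and 1 to 4 without single plants. Dosage kept 3 rising members throughout; the 0 falling became 1 with no filter (RST00590Zm00004b00001), 1 with the replicate block (RST00573Zm00004b00001) and 0 to 1 without single plants (1 without 1B replicate 2). With ERCC scaling the summed log2 ratios were 1.62 (RIL), 1.74 (RIL with zmB), 0.59 (RIT) and 0.36 (RST); without the most counted element they were 0.84, 0.44 (RIL with zmB), -0.22 (RST) and -0.54 (RST with zmB). Without single plants they ranged from 1.21 to 1.42, 1.34 to 1.43, 0.13 to 0.34, 0.01 to 0.11 and 1.43 to 1.88 for RIL, RIL with zmB, RIT, RST and RST with zmB. Signs of uncalled elements turned for RIL203014zmB00001 (-0.20 without the 3 libraries), RIT00002Zm00004b00001 (0.21 with ERCC scaling), RIT00002Zm00004b00013 (-0.0645 to 0.22 without single plants) and RST00464Zm00004b00001 (0.27 with ERCC scaling, 0.0042 with no filter, 0.0075 with the replicate block, -0.13 to 0.12 without single plants). Where a setting changed a value, the cause was not tested.

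The replicate block gave 11 higher and 2 lower members for presence, 12 and 2 for 1B, and 3 and 1 for dosage. No pairing of plants by replicate number was seen in the levels, which does not show how the plants were grown or handled. Over 87 same-numbered pairs the correlation of deviations ran from -0.35 to 0.184, and 14 pairs were over 0.1. Only 4 of 28 libraries correlated best with their own number. Members at a few counts per library limit what can be seen.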
